A study of Mus musculus with 8 samples.

Results

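The regulators of mRNA decay studied here are 10 genes: Zfp36, Zfp36l1 and Zfp36l2, which encode the tristetraprolin (TTP) family, Elavl1 (HuR), Khsrp (KSRP), Btg1, Btg2, Btg3, Tob1 and Tob2. They were chosen by symbol, as proteins that bind AU-rich mRNA or recruit deadenylases, and all 10 were found among the 29955 gene names of each library. The choice uses no measured threshold, but it was made with earlier results of these libraries known, so that the levels and tests below describe these libraries and are not independent support for any pattern. RNA-seq was performed on 2 populations of mouse bone marrow cells, LSK cells (Lin- Sca1+ Kit+, which hold the stem cells and multipotent progenitors) and LK cells (Lin- Sca1- Kit+, mostly myeloid progenitors), from WT mice and from Ripk3-KO (Ripk3-/-) mice that lack the necroptosis kinase Ripk3 in the whole animal. The strain background is given as CD57BL6/J for every library. Each genotype and population, 4 groups in all, has 2 libraries. The study's methods state collection after fractionated X-irradiation of the mice, whereas the labels state that the cells received no treatment. This would apply to all 4 groups. Ages, and whether mice were pooled, are not given for these libraries, so that p-values measure the spread between the 2 libraries of a group, which may be technical.

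Most mRNAs are destroyed after their poly(A) tail is shortened by the CCR4-NOT complex. TTP-family proteins bind AU-rich elements in the 3′ untranslated region (3′ UTR) through zinc fingers and bring CCR4-NOT to the message, KSRP also promotes decay of AU-rich messages, and HuR binds similar elements and mostly protects them. BTG and TOB proteins bind the deadenylase subunits of CCR4-NOT and hold cells back from division, and TTP-family and BTG proteins are known for their part in the quiescence of lymphocytes and hematopoietic cells.

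The deposited values are whole reads multiplied by a library factor, here called signal, which is a depth-scaled read count within 1 population and not divided by gene length. Libraries held 9782166 to 16280811 reads, and the least covered regulator in any library was Btg3 with 17 reads. Sex-linked genes split the libraries by genotype, so that sex and genotype cannot be told apart. Xist signal was 108 to 413 in the WT libraries and 0 to 1.27 in the Ripk3-/- libraries, and Eif2s3y was at 0 in all WT libraries and 47.0 to 98.8 in the Ripk3-/- libraries, with Uty and Kdm5d also above 0 in Ripk3-/- libraries only and Ddx3y at 0 in all 8. Ripk3 itself was at 162 and 168 in WT LSK, 3.38 and 1.08 in Ripk3-/- LSK, 144 and 150 in WT LK, and 16.2 and 10.6 in Ripk3-/- LK libraries. The Sca1 gene Ly6a was at 141 to 237 in LSK and 0.124 to 4.12 in LK libraries, as the sort requires, and Kit was at 223 to 464 in all. Summed signal of 11 neutrophil granule and mature myeloid markers was 731 to 819 in the WT libraries. It was 1745 to 1757 in Ripk3-/- LK and 2407 to 2852 in Ripk3-/- LSK libraries. Such sums compare genotypes within a population, since the scale of signal differs between LSK and LK libraries. The 8 B cell markers summed to 51.0 to 103 over all libraries. The part of these cells in any difference between the genotypes was not tested, and in bulk samples fewer expressing cells cannot be told apart from less RNA per cell.

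Of the regulators themselves, 7 of 10 carry the heptamer TATTTAT, the core of a TTP-family binding element, in the 3′ UTR, against 25.9% of 20313 coding genes. For each gene the complete GENCODE M21 transcript with the longest coding part was used, and among ties that with the longest 3′ UTR. The median 3′ UTR of the regulators is longer (1828.5 bases against 823), and a longer stretch has more places for a match. Zfp36, Zfp36l1 and Zfp36l2 have 3 heptamers each, Elavl1 has 8, Btg3 has 2, Btg2 and Tob2 have 1, and Khsrp, Btg1 and Tob1 have none. The site nearest the stop codon of each is shown with 11 bases on either side, because it is the letters that these proteins read, and capitals mark the heptamer.
Zfp36: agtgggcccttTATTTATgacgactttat
Zfp36l1: ttatcaaaacgTATTTATtgccaaactat
Zfp36l2: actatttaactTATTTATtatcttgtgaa
Elavl1: gtcatgaaaatTATTTATttatttattta
Btg2: aaatgaagagcTATTTATacatgtttttt
Btg3: ttggacttgagTATTTATatattgtgcat
Tob2: tatcacctgctTATTTATgtacgaggttg
No binding was measured here, so that a match describes the letters only. In Elavl1 the 8 heptamers start between bases 3795 and 3841 of its 3′ UTR and some overlap, whereas in Zfp36 they start at bases 575, 590 and 615 of its 3′ UTR of 774 bases.

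The promoters of Zfp36 and Btg2 are shown because these were the regulators with the highest levels and both were higher in LSK cells. The stretches are the 250 bases before the RefSeq start on GRCm38.p6, both on the minus strand, for Zfp36 chr7:28379229-28379478 and for Btg2 chr1:134079156-134079405. The RefSeq start of Zfp36 lies inside the longer GENCODE gene (28376784 to 28380253). Capitals mark an EGR motif (GCGGGGGCG) in Zfp36 and a cAMP response element (CRE, TGACGTCA) in Btg2.
Zfp36: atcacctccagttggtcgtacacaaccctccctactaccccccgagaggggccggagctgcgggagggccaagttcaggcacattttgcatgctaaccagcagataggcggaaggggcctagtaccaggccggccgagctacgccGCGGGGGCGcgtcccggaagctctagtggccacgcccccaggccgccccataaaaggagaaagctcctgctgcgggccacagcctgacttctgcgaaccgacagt
Btg2: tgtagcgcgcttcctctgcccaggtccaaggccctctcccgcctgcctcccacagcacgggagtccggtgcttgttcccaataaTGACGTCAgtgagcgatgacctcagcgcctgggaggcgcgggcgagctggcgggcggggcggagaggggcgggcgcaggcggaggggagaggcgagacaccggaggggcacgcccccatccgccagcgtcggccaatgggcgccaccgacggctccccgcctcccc
Both strands were searched in windows of this length. The CRE letters lie in 1.55% of 32851 promoters and the EGR letters in 2.57%, and among the 9 regulators with a promoter in the table each was found in 1. The AP-1 letters TGANTCA lie in 6.75% of promoters and, among the regulators, in that of Zfp36l1 only.

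Per length of exon, Zfp36 and Btg2 stood far above the other regulators. Levels between genes are given as depth-scaled read counts on 1 scale for all 8 libraries (CPM) per kilobase of annotated exon. Zfp36 was at 778 ± 6.0 (SD, n = 2) in WT LSK, 830 ± 85.5 in Ripk3-/- LSK, 265.5 ± 55.2 in WT LK and 254 ± 5.45 in Ripk3-/- LK libraries. Btg2, an immediate-early antiproliferative gene, was at 260.7 ± 13.85, 247 ± 17.7, 156 ± 14.5 and 153.5 ± 21 in the same order. Zfp36l2 followed in WT LSK at 45.5 ± 1.26. Below it in WT LSK, Btg1 (23.1 ± 3.805) and Tob1 (19.5 ± 0.831) lay within their spread, as did Zfp36l1 (13.5 ± 3.96) and Elavl1 (12.9 ± 1.75), and Khsrp (6.82 ± 2.83) and Tob2 (4.90 ± 0.165). Btg3 was lowest at 1.68 ± 0.317. In WT LK cells Elavl1 (23.9 ± 1.57) stood beside Zfp36l2 (27.0 ± 2.14). Tob1 (7.61 ± 1.02) and Zfp36l1 (5.91 ± 0.848) lay near Tob2 (7.35 ± 2.27). The places of Elavl1 and Tob2 depend on the length used. With the longest transcript as length, Elavl1 was at 43.0 in WT LK, above Zfp36l2 (27.0). It was then at 23.3 in WT LSK, above Zfp36l1 (13.5). Tob2 was then at 11.8 in WT LK, above Tob1 (7.61). By signal, Zfp36 ranked between place 8 and place 16 among all gene names in the LSK libraries and between place 96 and place 163 in the LK libraries. The 10 regulators took 0.438% to 0.507% of reads in LSK and 0.150% to 0.178% in LK libraries.

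**Figure D1:**
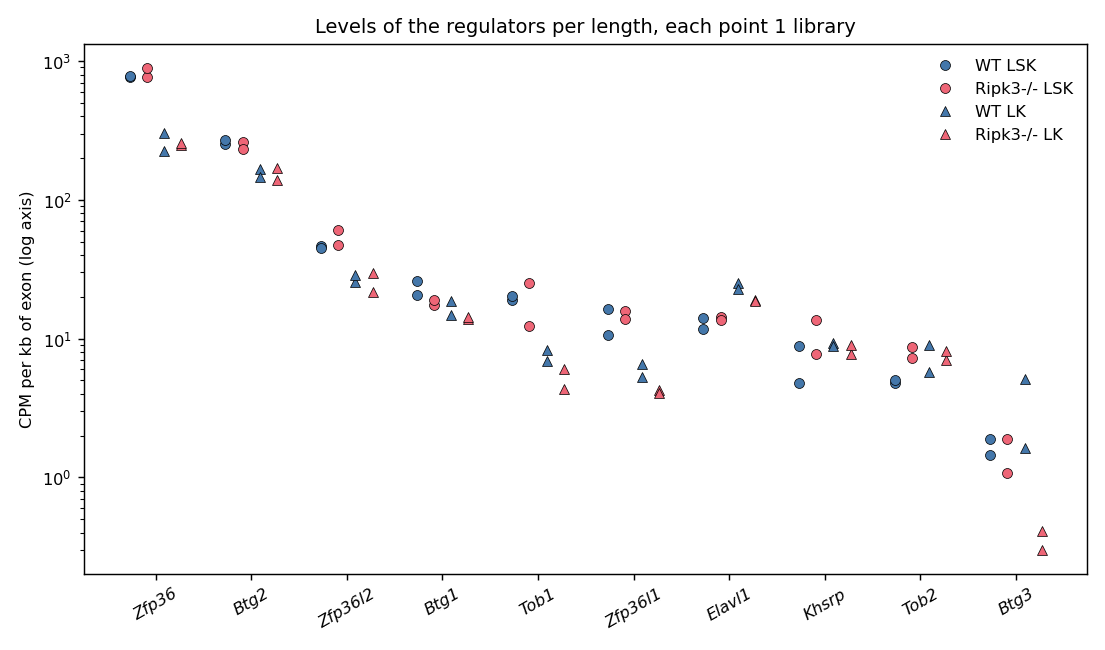
CPM per kilobase of exon (log axis) of the 10 regulators, ordered by their mean in WT LSK cells. Each point is 1 library, circles are LSK and triangles LK, blue is WT and red Ripk3-/-. Zfp36 and Btg2 lie above all other regulators in every library, and Btg3 lies lowest in each group, at 0.413 and 0.301 in the Ripk3-/- LK libraries.

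Levels of the TTP family, Btg2 and Tob1 were higher in LSK than in LK cells, and Elavl1 was lower. LSK and LK libraries had been scaled separately by the authors, and so this comparison used CPM on 1 scale, with limma on log2(CPM + 1) over both genotypes. It called 34.0% of the 15757 genes tested, 13.7% as higher and 20.2% as lower in LSK cells. Higher genes were 40.4% of these calls, and 28.6% when libraries were centred on their median. Of the regulators, 5 were called higher and 1 lower, and 7 had an unadjusted p under 0.05 (43.7% of all genes). Their LSK and LK libraries did not overlap in the same 6, against 28.0% of all genes. Their median log2 fold change was 0.56, against 0.07 for all genes. Some markers of other cells differed between the populations. The marker sums given next are signal, whose scale differs between the populations, while the calls are from CPM on 1 scale. The 7 T cell markers summed to 92.7 to 123 in LSK and 13.2 to 21.8 in LK libraries. All 7 had values above 0, 2 were called, and for 3 the populations did not overlap. Most of the LSK sum was Lck, at 74.0 and 62.1 (WT LSK) and at 96.5 and 71.7 (Ripk3-/- LSK). The 7 erythroid markers summed to 60.1 to 93.1 in LSK and 143 to 244 in LK libraries, and of 6 tested 3 were called lower and 1 higher in LSK cells. Their part in the differences of the regulators was not tested.

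Zfp36, which encodes TTP, was at 2686 and 2715 CPM in WT LSK, 2670 and 3090 in Ripk3-/- LSK, 786 and 1057 in WT LK and 869 and 895 in Ripk3-/- LK libraries. Every LSK library was above every LK library. The log2 fold change was 1.63 (SE 0.11, adjusted p = 9.2e-11 from limma). Its relative Zfp36l1 was at 32.0 and 48.7 CPM in WT LSK, 47.6 and 41.2 in Ripk3-/- LSK, 15.9 and 19.5 in WT LK and 12.8 and 12.0 in Ripk3-/- LK libraries, again with no overlap (log2 fold change 1.44, SE 0.25, adjusted p = 1.0e-04). Zfp36l2 was at 164, 158, 168 and 214 CPM in the LSK libraries and 89.9, 101, 76.8 and 104 in the LK libraries (0.91 on the log2 scale, SE 0.15, adjusted p = 7.1e-05). All 3 family members were thus higher in LSK cells in each library.

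Btg2 was at 688, 742, 711 and 642 CPM in the LSK libraries, WT before Ripk3-/-, and at 457, 401, 380 and 462 in the LK libraries. The lowest LSK library stood above the highest LK library (log2 fold change 0.71, SE 0.11, adjusted p = 4.0e-05). Tob1, a TOB protein that links deadenylases to the poly(A)-binding protein, was at 43.3, 46.0, 28.2 and 57.6 CPM in LSK and at 19.1, 15.8, 13.8 and 9.96 in LK libraries (1.51 on the log2 scale, SE 0.27, adjusted p = 1.3e-04). Its groups did not overlap, although the Ripk3-/- LSK libraries were far apart. Elavl1 went the other way, with 147, 121, 147 and 141 CPM in LSK and 259, 236, 198 and 193 in LK libraries (-0.66 on the log2 scale, SE 0.14, adjusted p = 5.7e-04). With quantile normalization it was -0.23 (adjusted p = 0.21), so that this call depends on the scale of the libraries.

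The other 4 regulators were not called. Btg1, at 91.8 to 136 CPM in LSK and 72.9 to 97.8 in LK libraries, overlapped between the populations and was close to the threshold (log2 fold change 0.42, 95% interval 0.08 to 0.75, adjusted p = 0.0503). The test of the recovered reads gave it an adjusted p of 0.032 in edgeR, which called 29.0% of genes, and 0.012 in DESeq2, which called 33.6%. The intervals were -0.58 to 0.42 for Khsrp, -0.53 to 1.27 for Btg3 and -0.66 to 0.19 for Tob2, which leaves room for differences of either sign.

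**Figure D2:**
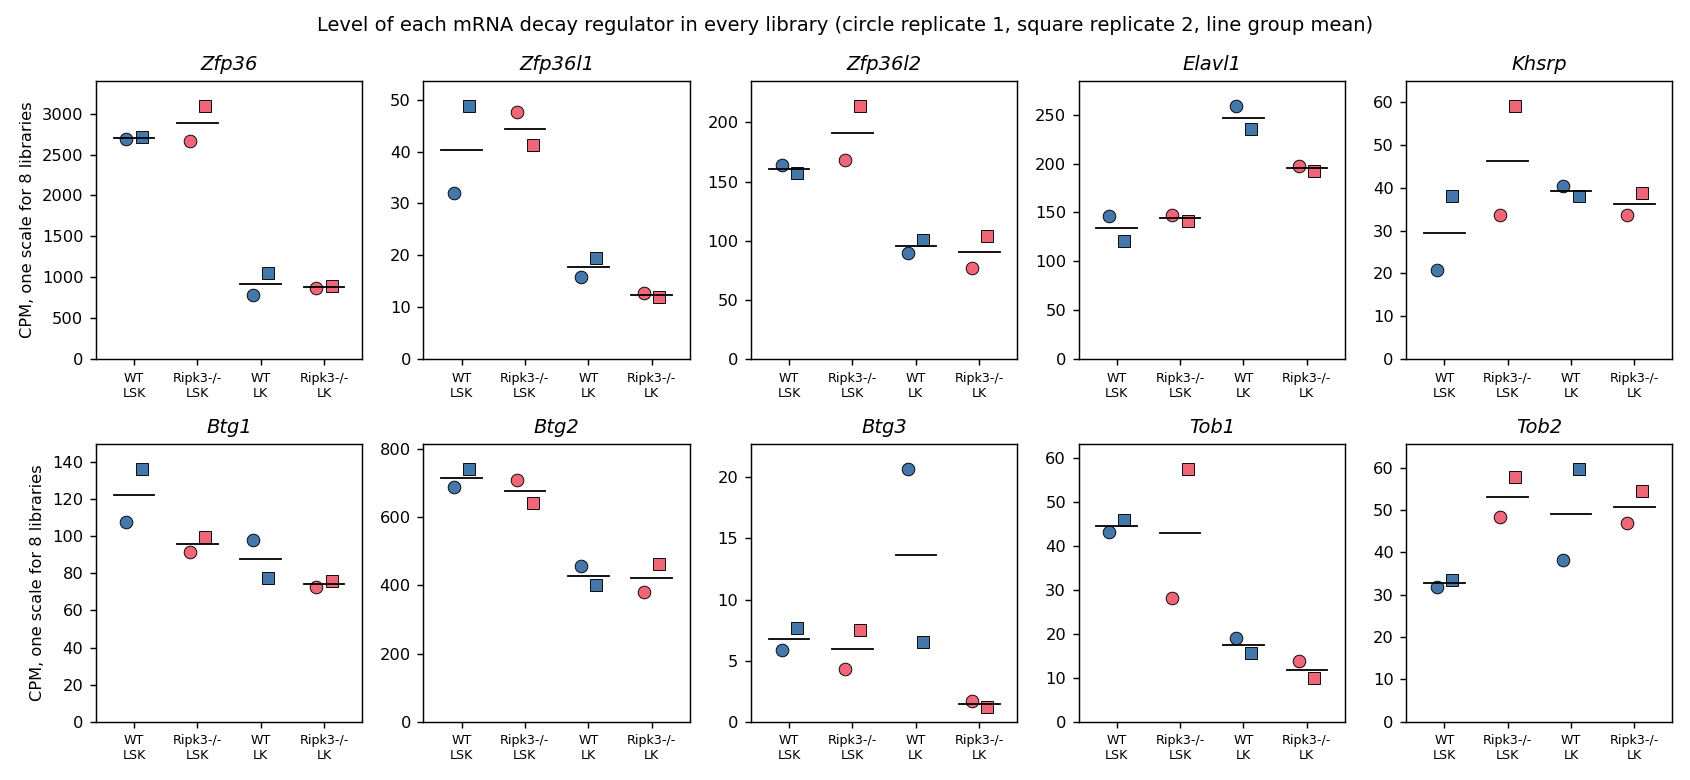
CPM on 1 scale (linear axes that start at 0) of each regulator in the 8 libraries, WT in blue and Ripk3-/- in red. Circles are replicate 1, squares replicate 2 and lines the mean of the 2 libraries. Zfp36, Zfp36l1, Zfp36l2, Btg2 and Tob1 are higher in all LSK than in all LK libraries, Elavl1 is lower, and Btg3 in LK cells spans 20.7 in WT replicate 1 to 1.21 in Ripk3-/- replicate 2.

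In LK cells, no regulator passed the test between Ripk3-/- and WT cells, and Btg3 had by far the largest difference. With limma on log2(signal + 1), 66 of 13949 genes (0.473%) had an adjusted p under 0.05, 0.373% being lower in Ripk3-/- cells. Neutrophil granule and mature myeloid markers moved with genotype (5 of 11 called higher in Ripk3-/- LK cells). Of the regulators, 0 passed, and 1 (Btg3) had an unadjusted p under 0.05, against 6.56% of all genes. edgeR (0.430% of genes) called 0 of them and DESeq2 (1.27%) called 1, Btg3. Both Ripk3-/- libraries lay below both WT libraries for 5 of the 10 (Zfp36l1, Elavl1, Btg1, Btg3 and Tob1), against 19.9% of all genes, and above them for 0, against 20.1% (40.0% in either direction). The log2 fold change was below 0 for 9 of 10 with a median of -0.18, against 0.01 for all genes.

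Btg3, a BTG protein that binds the deadenylase subunits, was at 18.1 and 5.80 signal (WT LK) and at 1.46 and 1.06 (Ripk3-/- LK), from 267, 76, 23 and 17 reads. Both Ripk3-/- libraries were below both WT libraries, and WT LK replicate 1 was far above WT LK replicate 2. The log2 fold change was -2.34 (SE 0.61, 95% interval -3.61 to -1.08, adjusted p = 0.12 from limma and 0.12 from edgeR). DESeq2 on the recovered reads gave -3.27 with an adjusted p of 0.0023, and the fit of the 4 LK libraries alone gave an adjusted p of 0.045. Without WT LK replicate 1 the log2 fold change was -1.60 (adjusted p = 0.9999). Across the settings tried, the adjusted p ran from 0.0023 to 0.9999. Btg3 shares 695 exon bases with Cxadr on the other strand, and the strand setting of the counting is not given in the sources used here. Cxadr was at 2.72 and 1.53 signal (WT LK) and at 1.46 and 1.68 (Ripk3-/- LK). Btg3 also has a processed pseudogene, Gm7334, with 100% identity over 756 bases, which the files do not list by this name.

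Zfp36 was at 689 and 937 signal (WT LK) and at 765 and 781 (Ripk3-/- LK), which lie between the WT values. Its log2 fold change was -0.06 (95% interval -0.38 to 0.27, adjusted p = 0.98). Btg2 was at 401 and 355 (WT) and at 335 and 403 (Ripk3-/-) (log2 fold change -0.04, 95% interval -0.37 to 0.29, adjusted p = 0.98), so that its groups overlapped too. For these, the most abundant regulators, a 2-fold difference (1 on the log2 scale) lies outside the interval.

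Elavl1 was at 227 and 209 signal (WT LK) and at 174 and 168 (Ripk3-/- LK) (log2 fold change -0.34, 95% interval -0.73 to 0.04, adjusted p = 0.815). Zfp36l1 was at 13.9 and 17.2 (WT) and at 11.3 and 10.5 (Ripk3-/-) (-0.47, 95% interval -1.21 to 0.26, adjusted p = 0.89). Tob1 was at 16.7 and 14.0 (WT) and at 12.1 and 8.69 (Ripk3-/-) (-0.53, 95% interval -1.32 to 0.26, adjusted p = 0.88). These 3 were lower in each Ripk3-/- library but not beyond the spread that limma estimates.

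Btg1, the closest relative of Btg2, was at 85.8 and 68.8 signal (WT LK) and at 64.2 and 66.1 (Ripk3-/- LK) (log2 fold change -0.24, SE 0.22). Zfp36l2 was at 78.9 and 89.1 (WT) and at 67.6 and 90.8 (Ripk3-/-) (-0.10, SE 0.21). Khsrp was at 35.5 and 33.7 (WT) and at 29.7 and 33.8 (Ripk3-/-) (-0.12, SE 0.34). Tob2, at 33.6 and 52.9 (WT) and at 41.2 and 47.6 (Ripk3-/-), was the only regulator with a log2 fold change above 0 (0.07, SE 0.29), and with 3 of 10 above 0 under quantile normalization the sign of Zfp36 and Btg2 is not settled either.

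In LSK cells, no regulator passed the test either, and Tob2 had the largest difference. limma called 363 of 16817 genes (2.16%) and 0 of the regulators, and so did edgeR (1.41% of genes) and DESeq2 (3.65%). Higher genes were 41.3% of the limma calls, and 23.5% when libraries were centred on their median, which moved the median of all genes to -0.12. Of the neutrophil granule and mature myeloid markers, 8 of 11 were called higher in Ripk3-/- LSK cells. An unadjusted p under 0.05 was found for 1 of the regulators, Tob2, against 17.9% of all genes. Both Ripk3-/- libraries lay above both WT libraries for Zfp36l2 and Tob2 and below them for Btg1, against 21.4% and 23.2% of all genes, so that 3 of 10 stand beside 44.6% in either direction. The median log2 fold change was 0.10, against -0.01 for all genes.

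Tob2, a TOB protein like Tob1, was at 36.3 and 38.1 signal (WT LSK) and at 54.6 and 66.0 (Ripk3-/- LSK). Both Ripk3-/- libraries were above both WT libraries (log2 fold change 0.68, SE 0.29, 95% interval 0.07 to 1.28, adjusted p = 0.23 from limma). Khsrp was at 23.7 and 43.4 (WT) and at 38.02 and 67.5 (Ripk3-/-), which overlap (0.64, 95% interval -0.07 to 1.35, adjusted p = 0.33). Btg1 was at 123 and 155 (WT) and at 104 and 114 (Ripk3-/-), lower in both (-0.34, 95% interval -0.81 to 0.12, adjusted p = 0.44). Zfp36l2 was at 187 and 180 (WT) and at 190 and 244 (Ripk3-/-) (0.23, 95% interval -0.22 to 0.68), with the gap between the groups much smaller than that between the Ripk3-/- libraries.

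Zfp36 was at 3060 and 3093 signal (WT LSK) and at 3014 and 3531 (Ripk3-/- LSK) (log2 fold change 0.08, 95% interval -0.23 to 0.40, adjusted p = 0.81). Btg2 was at 784 and 845 (WT) and at 803 and 734 (Ripk3-/-) (-0.08, 95% interval -0.41 to 0.24, adjusted p = 0.82). In both genes the genotypes overlapped, and the intervals leave out a 2-fold difference here as in LK cells. Zfp36l1 was at 36.4 and 55.5 (WT) and at 53.7 and 47.1 (Ripk3-/-), and Elavl1 at 167 and 138 (WT) and at 166 and 162 (Ripk3-/-). Tob1 was at 49.4 and 52.4 (WT) and at 31.8 and 65.8 (Ripk3-/-), so that 1 Ripk3-/- library lay below and 1 above both WT libraries. Btg3, at 6.65 and 8.70 (WT) and at 4.90 and 8.61 (Ripk3-/-) (-0.19, 95% interval -1.47 to 1.08), overlapped between the genotypes. On the scale shared by all libraries it was at 4.34 to 7.64 CPM in LSK cells, against 1.66 and 1.21 in the Ripk3-/- LK libraries.

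**Figure D3:**
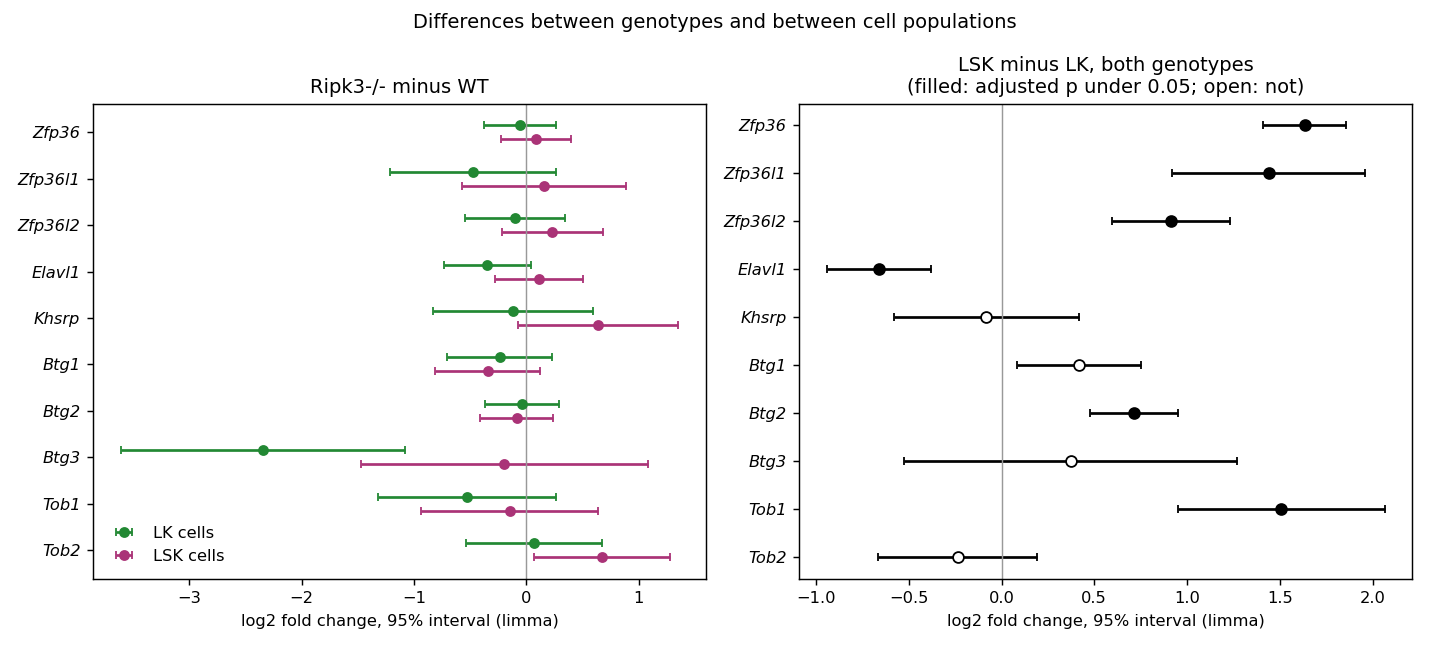
Log2 fold changes of the 10 regulators with 95% intervals from limma. On the left, Ripk3-/- minus WT is shown for LK cells (green) and LSK cells (purple), none with an adjusted p under 0.05; on the right, LSK minus LK over both genotypes, filled where the adjusted p was under 0.05. The interval of Btg3 in LK cells, -3.61 to -1.08, is the widest in the left panel that does not reach 0.

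An interaction term asked whether the genotype difference was unequal in the populations. It called 0.358% of 15901 genes (0.182% higher and 0.176% lower) and 0 of the regulators (1 at an unadjusted p under 0.05, against 10.1% of all genes, and 0 by edgeR, which called 0.340% of genes, and by DESeq2, which called 0.975%). For Btg3 the interaction was 2.15 (SE 0.86, 95% interval 0.36 to 3.94, adjusted p = 0.41 from limma). The difference of Btg3 between the genotypes is therefore not shown to be particular to LK cells. For Khsrp it was 0.76 (SE 0.48), for Zfp36l1 0.63 (SE 0.50), for Tob2 0.60 (SE 0.41) and for Zfp36 0.14 (SE 0.21).

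The machinery that these regulators recruit was counted from lists of its known components, drawn up with earlier results of these libraries known. Of 13 CCR4-NOT, PAN2-PAN3 and PARN deadenylase genes tested, 0 were called between the genotypes in LK or LSK cells, with median log2 fold changes of 0.08 and 0.26. For LSK cells 11 of 13 values lay above 0. Both Ripk3-/- LSK libraries lay above both WT LSK libraries for 7 and below them for 1, against 21.4% and 23.2% of all genes. An unadjusted p under 0.05 was found for 3 in LK and 2 in LSK cells, against 6.56% and 17.9% of all genes. The gene with the smallest p in both was Cnot6, a catalytic subunit of CCR4-NOT, at 27.4 and 32.7 signal in WT LSK, 63.5 and 67.8 in Ripk3-/- LSK, 53.5 and 36.4 in WT LK and 23.8 and 24.3 in Ripk3-/- LK libraries. In LSK cells both Ripk3-/- libraries lay above the WT ones (1.11 on the log2 scale, adjusted p = 0.056) and in LK cells both lay below (-0.85, adjusted p = 0.42), and its interaction of 1.96 passed in limma (SE 0.42, adjusted p = 0.042) but not in edgeR (adjusted p = 0.066). Between the populations, 2 of 13 were called higher in LSK cells, Cnot6l (0.74) and Pan3 (0.79), against 13.7% of all genes. Lower were 4, Cnot1, Cnot8, Cnot9 (listed as Rqcd1) and Parn, against 20.2% of all genes.

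Of 15 decapping and 5′ decay genes, 0 were called in LK cells and 2 in LSK cells, both higher, against 0.892% of all genes. Dcp1a, a cofactor of the decapping enzyme, was at 7.35 and 11.6 signal (WT LSK) and at 42.0 and 21.6 (Ripk3-/- LSK) (log2 fold change 1.60, adjusted p = 0.042 from limma and 0.060 from edgeR). Lsm2, a subunit of the LSM ring on mRNA 3′ ends and in the spliceosome, was at 1.99 and 1.97 (WT LSK) and at 11.7 and 22.3 (Ripk3-/- LSK) (2.53, adjusted p = 0.030 from limma and 0.067 from edgeR). Its level in WT LSK cells was low, so that this fold change rests on few reads. Neither call held without any 1 of the 4 LSK libraries or without Ripk3-/- LK replicate 2, and not both held without Ripk3-/- LK replicate 1. Of the 14 RNA exosome genes, 0 were called between the genotypes, with the smallest p for Exosc6 in LK (-0.92, adjusted p = 0.25) and Exosc3 in LSK cells (0.42, adjusted p = 0.30). Between the populations, all 14 had values below 0 and 9 were called lower in LSK cells (8 by edgeR), against 20.2% of all genes. Dis3 differed most (-1.33). Every LSK library lay below every LK library for 7 of the 14, against 16.7% of all genes.

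Of the poly(A)-binding proteins and their partners, 0 of 6 were called in LK or LSK cells, with the smallest p for Pabpn1 in LK (-0.37) and Paip2 in LSK cells (0.33). Of other 3′ UTR binding proteins, 0 of 16 in LK and 0 of 18 in LSK cells were called. An unadjusted p under 0.05 was found for 6 of 16 in LK cells, against 6.56% of all genes. In LSK cells it was found for 5 of 18, against 17.9%. Both Ripk3-/- LK libraries lay above both WT LK libraries for 3 of 16 and below them for 6, against 20.1% and 19.9% of all genes. Hnrnpd (AUF1) had the smallest p in LK cells at 288 and 53.8 signal (WT) and at 38.2 and 45.9 (Ripk3-/-) (-1.55, adjusted p = 0.20), with WT LK replicate 1 far above the other LK libraries, as for Btg3 (18.1). Ybx1 had the smallest p in LSK cells (-0.56, adjusted p = 0.090). In the list around the p38-MK2 arm, which holds kinases that lead to the phosphorylation of TTP, 14-3-3 proteins that bind phosphorylated TTP and Dusp1, a phosphatase that switches p38 off, 0 of 15 in LK and 0 of 16 in LSK cells were called. In LSK cells, however, 10 of 16 had an unadjusted p under 0.05, against 17.9% of all genes, and the genotypes did not overlap for 14 (8 higher and 6 lower in Ripk3-/- cells), against 44.6%. Mapkapk2 (MK2) in LK cells was at 317 and 111 (WT) and at 63.7 and 81.8 (Ripk3-/-) (-1.37, adjusted p = 0.058), and Ywhah in LSK cells had -0.61 (adjusted p = 0.092). Of this list, 11 of 16 were called lower in LSK than in LK cells (8 by edgeR), against 20.2% of all genes. Every LSK library lay below every LK library for 6 of the 16, against 16.7% of all genes. The 11 were the kinases Mapk13, Mapk14, Mapkapk2, Mapkapk3 and Map2k3 and the 14-3-3 genes Ywhab, Ywhae, Ywhag, Ywhah, Ywhaq and Ywhaz. The kinase Mapk12 (2.80) and the phosphatase Dusp1 (0.72) were called higher, against 13.7% of all genes. Mapk12 was near 0 in WT LK (0 and 0.458 signal) and Mapk13 was low in WT LSK cells (1.79 and 0).

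Of transcripts known as targets of the TTP family, 4 of 22 were called lower and 0 higher in Ripk3-/- LK cells, against 52 (0.373%) and 14 of all 13949 genes, with a median log2 fold change of -0.58 against 0.01 for all genes, while Zfp36 itself was at -0.06. The 4 were Plk2 (-2.00, SE 0.31) and Plk3 (-2.28, SE 0.46), stress-induced polo-like kinases, the chemokine Cxcl2 (-1.33, SE 0.29) and the cytokine signaling inhibitor Socs3 (-1.28, SE 0.27). Plk3 was uneven, at 42.1 and 15.1 signal (WT LK) and at 3.80 and 5.09 (Ripk3-/- LK), and its log2 fold change ran from -1.57 (without WT LK replicate 1) to -2.99 (without WT LK replicate 2). Plk2 was at 35.1 and 26.5 signal (WT LK) and at 7.10 and 6.64 (Ripk3-/- LK). The log2 fold change of Cxcl2 ran from -1.17 (without WT LK replicate 2) to -1.49 (without WT LK replicate 1). Cxcl2 lost its call whichever LK library was left out, and Plk2, Plk3 and Socs3 lost theirs without some of them. Without WT LK replicate 1, 0 of 23 were called, without Ripk3-/- LK replicate 1, 1 was, and over all left-out libraries 0 to 5 were. In LSK cells, 3 of 25 were called lower and 0 higher, against 1.27% and 0.892% of all genes: Vegfa (-1.74, SE 0.28), the cell cycle inhibitor Cdkn1a (-1.32, SE 0.21) and Plk2 (-1.22, SE 0.30). Without single libraries this was 1 (without WT LSK replicate 2) or 2, and Plk2 was not called without any 1 of the 4 LSK libraries. The list's median was -0.46 against -0.01 for all genes. Between the populations, 12 of 24 targets were called higher and 1 lower in LSK cells, against 13.7% and 20.2% of all genes.

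Immediate-early genes, among which Zfp36 and Btg2 are often counted, are induced within minutes of a stimulus and have short-lived mRNA. This list did not hold Zfp36 or Btg2 and shared 5 genes with the target list. In LK cells 8 of 34 were called lower in Ripk3-/- cells and 0 higher, against 52 (0.373%) and 14 of all 13949 genes (median -0.60, against 0.01). They were the AP-1 subunits Junb (-0.88), Jund (-2.26) and Atf3 (-1.18), the phosphatase Dusp2 (-2.41), the orphan receptor Nr4a1 (-1.10), the NF-κB inhibitor Nfkbia (-1.60), Socs3 and Ppp1r15a (-0.82). Jund was at 631 and 380 signal (WT LK) and at 51.7 and 197 (Ripk3-/- LK), and its log2 fold change ran from -1.31 (without Ripk3-/- LK replicate 1) to -3.22 (without Ripk3-/- LK replicate 2). Dusp2 was at 283 and 149 (WT LK) and at 26.7 and 54.0 (Ripk3-/- LK), with -1.91 to -2.90 over the same left-out libraries. Of the 8, Dusp2 and Nfkbia were called without each of the 4 LK libraries and the other 6 were not. Without WT LK replicate 1 the count was 4, without Ripk3-/- LK replicate 1 it was 2, and the highest was 9, while edgeR called 7 of these and 4 of the targets lower. In LSK cells 5 of 36 were called lower and 0 higher, against 1.27% and 0.892% of all genes: Atf3 (-1.37), Nr4a1 (-1.06), Nfkbia (-1.16), the kinase Sgk1 (-1.38) and Gadd45b (-1.39), with 2 to 5 over the left-out libraries and the lowest without WT LSK replicate 2. The log2 fold change of Sgk1 in LSK cells ran from -1.07 (without WT LSK replicate 1) to -1.69 (without WT LSK replicate 2). That of Gadd45b ran from -1.15 (without WT LSK replicate 2) to -1.63 (without WT LSK replicate 1). Sgk1 lost its call whichever LSK library was left out, and Nr4a1 and Gadd45b lost theirs without some of them. Nfkbia was at 1736 and 1792 signal (WT LK) and at 532 and 634 (Ripk3-/- LK). The intervals of Zfp36 and Btg2 lay between -0.41 and 0.40 in both populations. Between the populations 25 of 36 were called higher and 2 lower in LSK cells, against 13.7% and 20.2% of all genes.

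**Figure D4:**
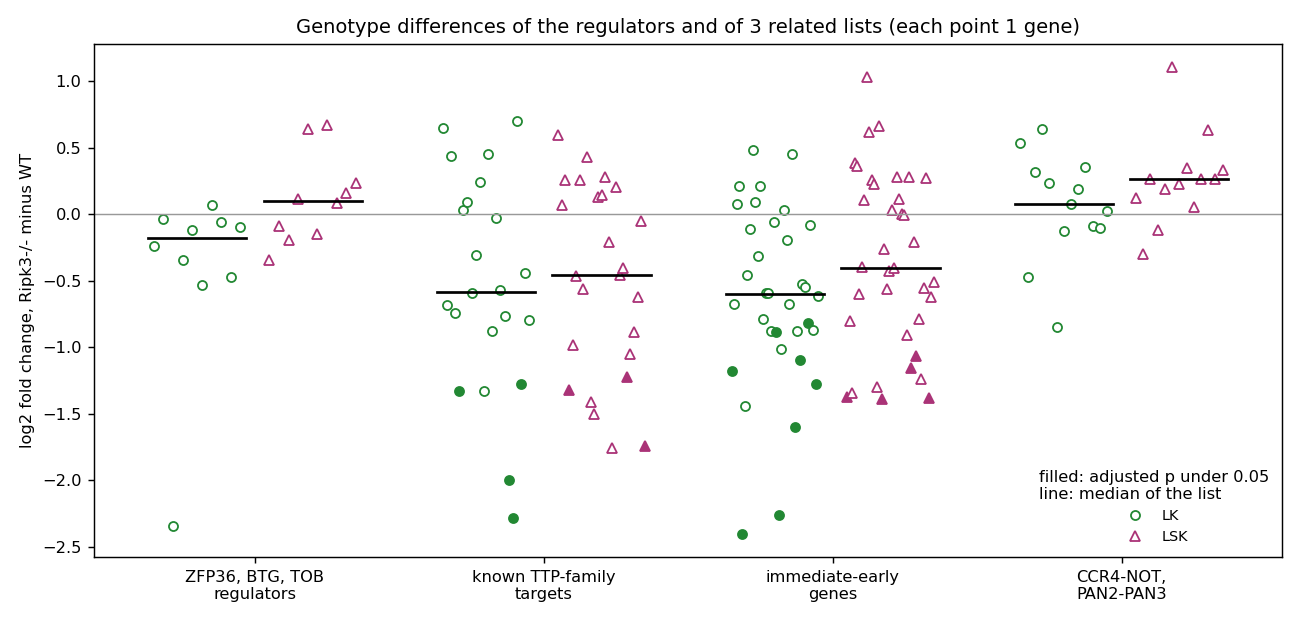
Log2 fold changes of Ripk3-/- minus WT cells for the 10 regulators, known TTP-family targets, immediate-early genes and deadenylase genes. Each point is 1 gene, green circles LK and purple triangles LSK, filled where the adjusted p from limma was under 0.05, with a line at the median. No regulator is filled and Btg3 is the lowest of them at -2.34 in LK cells, whereas filled points of the targets and the immediate-early genes all lie below -0.8.

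Over the 8 libraries, after log2(signal + 1) was centred within each population, the genes closest to Zfp36 among 9580 were Prpf40b (Pearson's r = 0.98), Phka2 (0.97), Otos (0.97), Ppp1r9b (0.94) and Nwd1 (0.94). Those closest to Btg2 were Ap3m2 (0.97), Napa (0.96), Lpcat4 (0.96), Rac2 (0.95) and Gm16517 (0.95). These libraries are few, and with this many genes high values arise easily, so that they are a description. Among the other regulators, Tob2 (0.73) and Zfp36l2 (0.63) were closest to Zfp36 and Btg1 (0.55) was closest to Btg2, while Zfp36 and Btg2 had r = -0.53.

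Positions are from GENCODE M21 on GRCm38, not the mm9 build of the submitters. Zfp36 (ENSMUSG00000044786.6) lies on chromosome 7 from 28376784 to 28380253 on the minus strand, Btg2 (ENSMUSG00000020423.6) on chromosome 1 from 134075170 to 134079120 on the minus strand, Btg3 (ENSMUSG00000022863.15) on chromosome 16 from 78332637 to 78377192 on the minus strand and Tob2 (ENSMUSG00000048546.8) on chromosome 15 from 81848272 to 81858796 on the minus strand. Near-identical pseudogenes (at least 90% identity over at least 200 bases) were found for Zfp36l1, Khsrp, Btg1 and Btg3, with which reads can be shared. Elavl1 overlaps Ccl25 on the other strand by 204 exon bases, and Ccl25 signal was 0.596 to 2.99. Zfp36l1 shares 1672 exon bases with the antisense Gm26669, which the files do not list by that name.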

How the data were processed

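RNA-seq of 8 libraries (2 each of WT and Ripk3-KO LSK and LK cells) was analysed from the deposited files. TruSeq Stranded mRNA libraries were prepared, and the submitters' processing notes name TopHat and mm9; the counting tool and its strand setting are not given in the sources used here. The authors deposited signal values under the header FPKM, but every value above 0 was a whole multiple (within 0.01) of 1 step per library, equal to reads scaled by TMM factors of edgeR (4.0.16) within each population. The 2 populations were thus scaled separately, and reads recovered with these steps were rescaled together for LSK against LK. The 100% whole values let edgeR call 60 genes in LK and 237 in LSK cells on the reads. A read was worth 0.0621 to 0.104 signal and the floor of 3 reads 0.186 to 0.311, counting error only. Replicates differed beyond counting noise (chi-square per degree of freedom 20.8 to 28.9).

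The main test was limma (3.58.1, R 4.3.3) with a trend, on log2(signal + 1), two-sided, over 4 group means, for genes whose signal averaged 1 or more, with Benjamini-Hochberg adjustment; this scale understates changes of low genes. An exact permutation test of 2 against 2 libraries cannot go below p = 0.333. Alternatives were a pseudocount of 0.1, other filters (none, or 5), quantile normalization, median centring, a replicate block, edgeR, DESeq2 (1.42.0), fits within 1 population and leaving out each library. Left-out libraries for the lists and their called genes, and pairing of LSK with LK libraries were added after the data were seen. The tests were checked on simulated data. Named genes were the regulators, Ripk3, from each list those with an adjusted p under 0.05 between genotypes or else the smallest p, the 5 genes most like Zfp36 and Btg2, Xist and 4 Y-linked genes; list genes named for LSK against LK, and Ly6a and Kit, were chosen after their values were seen. The regulators and lists were chosen with earlier results of these data known. Positions and lengths came from GENCODE M21, copies from BLAST (2.17.0) and promoters from RefSeq (GRCm38.p6). Replicate numbers did not pair the libraries: same-numbered deviations correlated at -0.003 (LSK) and -0.012 (LK) between genotypes, and between LSK and LK at 0.001 (WT) and -0.149 (Ripk3-KO), for which a crossed pairing was added.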

Additional observations from a re-analysis of the deposited data

How the results depend on the processing

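All regulators kept their side of the threshold under a pseudocount of 0.1, other filters, quantile normalization, median centring, the replicate block and each left-out library in the genotype comparisons and the interaction; the exception is Btg3 in LK cells, where DESeq2 and the 4-library fit each called 1 regulator (log2 fold changes -3.27 and -2.34). Between the populations, Elavl1 lost its call with quantile normalization (-0.23), and Btg1 gained one with a filter of 5, quantile normalization (0.76), edgeR (0.47), DESeq2 (0.48), crossed pairing and without WT LSK replicate 1 (0.50). The replicate block changed no call of a regulator (79 genes called in LK, 289 in LSK, 53 for the interaction and 5138 between the populations); since the numbers do not pair the libraries, it is a check only. Pairing LSK with LK libraries by number within a genotype gave 4817 genes and crossing the Ripk3-/- pair gave 5687, with 6 and 7 regulators.

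The count of all genes called in LK cells, 66, became 9 without a filter, 39 with quantile normalization, 177 with DESeq2, 125 in the 4-library fit and 13 (without Ripk3-/- LK replicate 1) to 101 (without WT LK replicate 2) with libraries left out, and 15 without WT LK replicate 1. That in LSK cells, 363, became 198 without a filter, 237 with edgeR, 613 with DESeq2, 195 in the 4-library fit and 99 (without WT LSK replicate 2) to 262. The 57 of the interaction became 3 without a filter, 155 with DESeq2 and 17 (without WT LSK replicate 2) to 90 (without WT LK replicate 2). The cause of these moves was not tested.

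Signs of values that passed no test changed. In LK cells Zfp36 was 0.070 and Btg2 0.055 with quantile normalization, and left-out libraries gave -0.28 to 0.17 for Zfp36, -0.17 to 0.095 for Btg2, -0.25 to 0.39 for Tob2 and -0.31 to 0.11 for Zfp36l2. In LSK cells Btg2 was 0.045 and Btg3 0.0099 with quantile normalization and Zfp36 -0.026 with median centring, and left-out libraries gave -0.55 to 0.16 for Btg3, -0.030 to 0.20 for Zfp36, -0.14 to 0.45 for Zfp36l1, -0.026 to 0.25 for Elavl1 and -0.66 to 0.37 for Tob1. The interaction ran from -0.28 to 0.059 for Btg1, -0.18 to 0.087 for Btg2, -0.13 to 0.90 for Tob1 and -0.080 to 0.36 for Zfp36. Between the populations Khsrp was 0.071 with quantile normalization, 0.021 with edgeR and 0.030 with DESeq2 and ran from -0.27 to 0.13, and Btg3 was -0.078 with quantile normalization and ran from -0.0065 to 0.76. With the longest transcript as length, WT LSK levels per kilobase were 968 for Zfp36, 23.3 for Elavl1, 2.24 for Btg3 and 7.87 for Tob2. Depth limits Btg3 most, with 17 reads in 1 library.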
